A study of Arabidopsis thaliana with 8 samples.

Results

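AT5G03350, a gene of the legume lectin family on chromosome 5, and AT3G28510, a gene of the AAA-type ATPase family on chromosome 3, are the genes described here. They were chosen from the measured values, as the 2 genes with the largest rise under salicylic acid (SA) in the wild type and the most negative interaction of SA with genotype. Each is read by 1 probe set of its own (250942_at for AT5G03350 and 256593_at for AT3G28510). They are 2 of the 13356 genes that had a probe set annotated to a single gene, among 22746 probe sets without the controls.

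The series measured transcripts on the Affymetrix ATH1 chip in complete Arabidopsis seedlings, 2 weeks old. Their medium was replaced by water or by 2 mM SA, and RNA was isolated after 24 h. The mutant npr1-1 and its wild type Col-0 were each treated both ways, which gave the groups npr1-1 SA, npr1-1 water, Col-0 SA and Col-0 water, with 2 arrays in each that the titles call biological replicates. The study used these arrays to group genes by their response to SA and to sort SA-regulated genes by their dependence on NPR1.

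SA is the plant hormone that accumulates after infection and switches on defense genes in the infected leaf and at a distance (systemic acquired resistance, SAR). NPR1 is a coactivator without DNA binding of its own that moves to the nucleus when SA rises and acts through TGA transcription factors. Legume-type lectins are proteins that bind sugars, and AAA-type ATPases spend ATP to remodel or unfold other proteins. The allele npr1-1 is a point mutation, so a transcript level of NPR1 would not check the genotype labels, and NPR1 is not analysed here.

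A property of the whole series bears on every value below. Across the 22746 probe sets, the difference of SA and water in npr1-1 ran against that in Col-0 (Pearson's r = -0.50 across probe sets, and probe sets are no independent replicates). The arrays of npr1-1 are named by their labels, no label was changed, and the reason for the opposite directions was not tested. Whether the SA and water labels were exchanged within npr1-1 was not tested either. Were they exchanged, every difference of SA and water in npr1-1 printed here would take the opposite sign, and the interaction and each genotype value at a single treatment would be others. The difference within Col-0 uses no npr1-1 array. It is given for AT5G03350 and AT3G28510, but not beside every npr1-1 or interaction value of the other genes. Replicate arrays correlated at r = 0.994 to 0.996 and those of different groups at 0.922 to 0.966 over the probe sets. The number of arrays limits the precision of every value.

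All levels are the log2 values that the authors deposited, on which a difference of 1 is a doubling of the signal. A level reads how bright a probe set was, so the levels of the 2 genes are not set against each other as amounts of RNA. Since the RNA came from whole seedlings, fewer cells that express a gene and less of its RNA per cell cannot be told apart.

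AT5G03350 had levels of 3.05 and 2.76 on the arrays labelled npr1-1 SA, 10.23 and 10.18 on those labelled npr1-1 water, 9.61 and 9.45 in Col-0 SA and 4.47 and 4.10 in Col-0 water. The npr1-1 water and Col-0 SA arrays were thus the high ones, the npr1-1 SA and Col-0 water arrays the low ones, and no group overlapped another. The group means were 2.90 ± 0.205 in npr1-1 SA, 10.20 ± 0.0366 in npr1-1 water, 9.53 ± 0.111 in Col-0 SA and 4.28 ± 0.259 in Col-0 water (SD, n = 2 each).

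AT3G28510 had levels of 0.07 and 0.40 on the arrays labelled npr1-1 SA, 6.94 and 7.05 on those labelled npr1-1 water, 6.43 and 6.16 in Col-0 SA and 0.66 and 1.20 in Col-0 water. The same groups were high and low as for the lectin gene, again with no overlap between groups. The means were 0.24 ± 0.229 in npr1-1 SA, 7.00 ± 0.0819 in npr1-1 water, 6.30 ± 0.188 in Col-0 SA and 0.93 ± 0.379 in Col-0 water (SD, n = 2 each). All 4 low values lay under the medians of the arrays (1.34 to 1.48), and those of npr1-1 SA also lay under the lower quartiles of their arrays (0.52 and 0.48). Detection calls are not used here, so it is not known whether the ATPase transcript was detected at all on the low arrays, and its folds rest on these dim values.

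**Figure D1:**
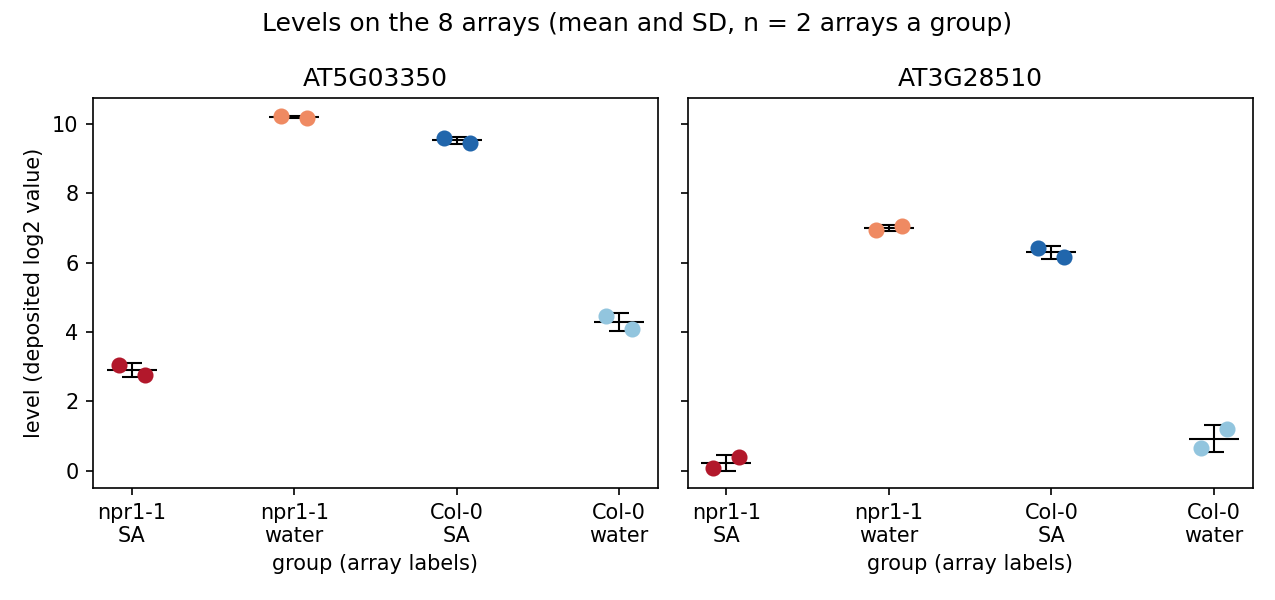
Levels (deposited log2 values) of AT5G03350 and AT3G28510 on the 8 arrays, in the groups npr1-1 SA, npr1-1 water, Col-0 SA and Col-0 water. Points are arrays, horizontal lines are group means and bars are SD (n = 2); for both genes the npr1-1 water and Col-0 SA arrays are high, and the npr1-1 SA and Col-0 water arrays are low.

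Within Col-0, SA arrays were 5.25 above water arrays for the lectin gene AT5G03350 on the log2 scale (37.9-fold) and 5.37 above them for the ATPase gene AT3G28510 (41.3-fold). Within npr1-1, by the labels, the SA arrays differed from the water arrays by -7.30 for AT5G03350 (158-fold lower) and by -6.76 for AT3G28510 (108-fold lower). The interaction, which is the npr1-1 difference minus the Col-0 difference, was -12.55 for AT5G03350 and -12.13 for AT3G28510. These are the values by which the genes were chosen, or are made of the same arrays, and no test is given for them.

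The contrast of the genotypes depended on the treatment in the same way for both genes. In water, npr1-1 arrays were 5.92 above Col-0 arrays for AT5G03350 (60.5-fold) and 6.07 above them for AT3G28510 (67.0-fold). Under SA, npr1-1 arrays differed from Col-0 arrays by -6.63 for AT5G03350 (98.9-fold lower) and by -6.06 for AT3G28510 (66.8-fold lower). Averaged over both treatments, the genotypes differed by -0.35 for AT5G03350 and by 0.00 for AT3G28510, so that nearly nothing of either contrast was left in the average. Over all probe sets, limma called 27.0% for the genotypes in water (14.2% higher and 12.7% lower in npr1-1), 39.3% under SA (20.9% higher and 18.4% lower) and 37.8% over both treatments (21.3% higher and 16.5% lower), and nothing is read from these shares about genes chosen by their values.

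Both genes had the same order of groups, with npr1-1 water highest, then Col-0 SA, Col-0 water and npr1-1 SA. The step in the middle of this order was by far the widest, with 4.98 for AT5G03350 and 4.97 for AT3G28510 between the nearest arrays of Col-0 SA and Col-0 water. This step is part of the rule by which both genes were chosen. At the top, npr1-1 water averaged 0.67 above Col-0 SA for AT5G03350 and 0.70 above it for AT3G28510. The nearest arrays of these groups were 0.57 apart for AT5G03350 and 0.51 apart for AT3G28510, wider than the range within either group. At the bottom, npr1-1 SA differed from Col-0 water by -1.38 for AT5G03350, with 1.05 between the nearest arrays. For AT3G28510 that difference was -0.69 with 0.26 between the nearest arrays, less than the range of 0.32 within npr1-1 SA or of 0.54 within Col-0 water. The gap between the bottom groups of AT3G28510 was therefore narrower than their spread, though their arrays did not overlap, and whether these groups differ was not tested.

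The profiles of the lectin and the ATPase gene over the arrays ran nearly parallel (r = 0.993 over the 8 arrays). Both were chosen by the same differences between these arrays, so the high r follows largely from the choice. The level of AT5G03350 minus that of AT3G28510 ranged over the arrays from 2.36, on npr1-1 SA replicate 2, to 3.81, on Col-0 water replicate 1. Both of these extremes are arrays on which both genes were low, while the 4 arrays on which they were high lay between 3.12 and 3.29.

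Markers of other tissue and the state of the RNA also differed between the groups. Of a list of 14 photosynthesis genes, 4 were measured, that is, had a probe set annotated to them alone. The log2 of their summed signal was 10.8 to 10.9 in npr1-1 SA and 10.1 to 10.2 in npr1-1 water. It was 9.33 to 9.35 in Col-0 SA and 10.6 in Col-0 water. Of a list of 9 root genes, 3 were measured, with 7.12 to 7.32 in npr1-1 SA, 5.63 to 5.83 in npr1-1 water, 4.99 to 5.12 in Col-0 SA and 7.52 to 7.73 in Col-0 water. Both sums were thus low on the arrays where AT5G03350 and AT3G28510 were high. The sum of the root list is carried by PYK10, a beta-glucosidase of root ER bodies, which lay between 4.83 and 7.71, while the root hair expansin EXPA7 stayed at 0.40 to 0.73 and AT4G11290 at 0.39 to 1.37 on all arrays. Of the photosynthesis genes, chlorophyll-binding LHCB4.1 lay between 7.59 and 9.41 and LHCB4.3 between 1.20 and 1.94. The root part of the seedlings is thus read from PYK10 alone.

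RNA quality was read from control probe sets placed at the 3′ and 5′ ends of the same transcripts. The 3′ minus 5′ log2 difference of actin was 5.95 to 5.96 in npr1-1 SA, 6.11 to 6.15 in npr1-1 water, 4.81 to 5.24 in Col-0 SA and 5.25 to 5.40 in Col-0 water. That of GAPDH was 3.35 to 4.05 in npr1-1 SA, 2.77 to 3.94 in npr1-1 water, 3.22 to 3.93 in Col-0 SA and 2.16 to 2.93 in Col-0 water. That of ubiquitin was 2.36 to 2.60 in npr1-1 SA, 1.83 to 2.26 in npr1-1 water, 2.29 to 2.34 in Col-0 SA and 2.01 to 2.08 in Col-0 water. None of these measures was high or low on the same 4 arrays as the genes. That of actin was nevertheless higher on all npr1-1 arrays than on any Col-0 array. Those of GAPDH and ubiquitin were higher in Col-0 SA than in Col-0 water, while that of actin was lower there. The contrasts of the genotypes and of SA in Col-0 thus go along with differences in these measures. The part of tissue markers or RNA quality in the levels was not tested.

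Just outside the rule, the next genes by the Col-0 rise were AT3G29970 (4.98), UGT76B1 (4.87) and AT2G30660 (4.69). The next by the interaction were UGT76B1 (-10.81), AT1G19960 (-9.07) and AT2G32160 (-8.23). UGT76B1 encodes a glucosyltransferase that inactivates SA and related immune signals by adding a sugar, and it ranked 4th by the rise and 3rd by the interaction among named genes. AT5G03350 ranked 2nd by the rise and 1st by the interaction, and AT3G28510 ranked 1st by the rise and 2nd by the interaction. Over all probe sets, 5 without a single gene symbol went beyond the members on each measure, and they are not named here.

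The next genes differed among themselves in npr1-1. AT3G29970 had levels of 0.37 and 0.39 in npr1-1 SA, 0.34 and 0.53 in npr1-1 water, 5.77 and 5.08 in Col-0 SA and 0.39 and 0.51 in Col-0 water. It was therefore high in Col-0 SA alone, with a difference of -0.05 in npr1-1. AT2G30660 was of the same kind, with 0.76 and 0.60 in npr1-1 SA, 1.02 and 1.21 in npr1-1 water, 5.74 and 5.92 in Col-0 SA and 1.02 and 1.27 in Col-0 water. A large rise in Col-0 thus did not by itself come with high levels in npr1-1 water, as it did for AT5G03350 and AT3G28510.

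The other pair of next genes had high levels in npr1-1 water. AT1G19960 had 0.87 and 0.52 in npr1-1 SA, 5.52 and 5.73 in npr1-1 water, 5.37 and 4.97 in Col-0 SA and 1.11 and 0.94 in Col-0 water. AT2G32160 had 0.56 and 0.61 in npr1-1 SA, 5.68 and 5.89 in npr1-1 water, 4.84 and 4.63 in Col-0 SA and 1.36 and 2.04 in Col-0 water. Of the 5 next genes, 3 (UGT76B1, AT1G19960 and AT2G32160) had the pattern of the lectin and the ATPase gene in npr1-1. These are the 3 picked by the interaction, which contains the npr1-1 difference, so their pattern follows largely from the choice. As the 5 next genes were picked for the size of their differences, no test is given for them as next genes.

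**Figure D2:**
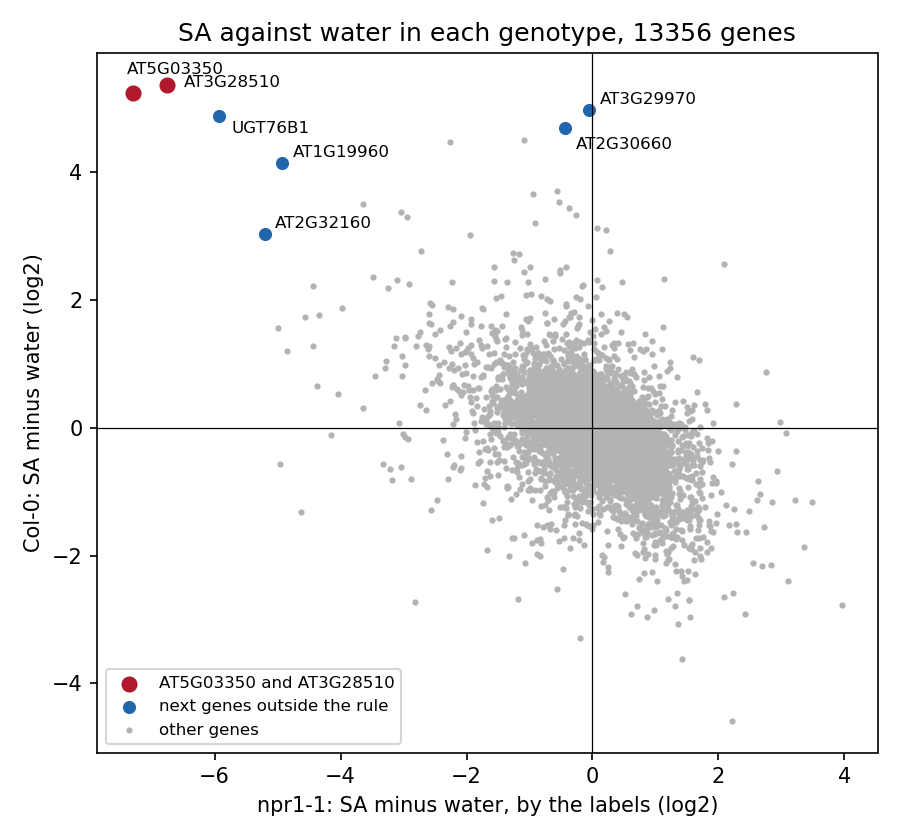
Log2 difference of SA and water in npr1-1 (horizontal axis, by the labels) and in Col-0 (vertical axis) for 13356 genes, each a grey point. AT5G03350 and AT3G28510 (red) lie at the upper left, above 5 in Col-0 and below -6 in npr1-1, while AT3G29970 and AT2G30660 (blue) lie near 0 in npr1-1.

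The genes with the most similar pattern were looked for by Pearson's r over the 8 arrays, among 915 genes whose values ranged over at least 2 on the log2 scale. Nearest to AT5G03350 were AT1G19960 (r = 0.994), AT3G28510 (0.993), AT1G13750 (0.993), AT3G29240 (0.991) and AT3G07600 (0.988). Nearest to AT3G28510 were AT1G19960 (0.995), AT5G03350 (0.993), AT3G28540 (0.991), AT2G32160 (0.989) and AT3G29240 (0.988). In all, 35 genes had r over 0.95 with AT5G03350 and 31 with AT3G28510, while 20 and 17 genes had r under -0.95 with them. All these points share the same arrays, and since the arrays fall into a high and a low set, r reads mostly that split.

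The like genes differed in how far apart the high and low arrays were. AT3G29240 had 7.13 and 7.44 in npr1-1 SA, 10.10 and 9.65 in npr1-1 water, 9.73 and 9.72 in Col-0 SA and 7.82 and 7.73 in Col-0 water. AT1G13750 had 3.18 and 3.10 in npr1-1 SA, 6.03 and 6.10 in npr1-1 water, 6.31 and 5.98 in Col-0 SA and 4.02 and 3.76 in Col-0 water. AT3G07600 had 1.00 and 0.78 in npr1-1 SA, 4.20 and 4.54 in npr1-1 water, 4.36 and 4.40 in Col-0 SA and 2.04 and 1.99 in Col-0 water. For each of these, npr1-1 SA lay below Col-0 water without overlap, as for AT5G03350, and the step between the high and low arrays was smaller. Which genes came out as most similar depended on the measure and on single arrays. Spearman's rho shared 0 of the 5 genes listed for AT5G03350 and 1 of the 5 for AT3G28510. Pearson's r without Col-0 water replicate 2 shared 2 of the 5 for AT5G03350, and without Col-0 SA replicate 1 it shared 3 of the 5 for each gene, as it did for AT3G28510 without npr1-1 water replicate 1.

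No relative by name could be set beside the 2 genes. The gene table used for names (assembly TAIR10.1) names 45 other genes as legume or L-type lectins and 12 as AAA-ATPases, and 0 of these had a probe set annotated to them alone here. The search read symbols and synonyms alone, so family members without such a name, also among the chromosome neighbours, would be missed. The families as such are therefore not analysed here.

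The chromosome neighbourhood was measured in part. Of the 10 genes on each side of AT5G03350 in the gene table, 9 were read by a probe set alone, and of those around AT3G28510 12 were. They were tested with limma over all 22746 probe sets, with Benjamini-Hochberg adjustment of p, and called at an adjusted p under 0.05. Of all probe sets, 23.5% were called for SA against water in Col-0 (10.1% higher and 13.4% lower), 28.2% in npr1-1 (14.8% higher and 13.4% lower) and 32.0% for the interaction (16.9% higher and 15.0% lower).

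Around AT5G03350, 3 of the 9 measured neighbours rose with SA in Col-0 and 0 fell, with a median of 0.15 against 0.02 over all probe sets. These were IDH-V, a subunit of mitochondrial isocitrate dehydrogenase (0.97 ± 0.123, adjusted p = 0.000118, limma), AT5G03380 (0.98 ± 0.124, adjusted p = 0.000116, limma) and AT5G03390 (0.91 ± 0.123, adjusted p = 0.000187, limma; all ± SE). In npr1-1, by the labels, 1 of the 9 was higher under SA and 2 were lower, with a median of -0.03 against 0.00 over all probe sets. IDH-V differed by -1.12 and AT5G03320 by -0.65 in npr1-1, while AT5G03345 differed by 0.72. For the interaction, 1 of the 9 was higher and 4 were lower, with a median of -0.06 against -0.03 over all probe sets.

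IDH-V, 8 places from AT5G03350, had levels of 5.55 and 5.68 in npr1-1 SA, 6.80 and 6.68 in npr1-1 water, 6.95 and 6.81 in Col-0 SA and 5.85 and 5.97 in Col-0 water. Its high and low arrays were those of AT5G03350 (r = 0.975 over the 8 arrays), at a much smaller step. AT5G03345, the gene next to AT5G03350, had 6.43 and 6.32 in npr1-1 SA, 5.61 and 5.71 in npr1-1 water, 5.85 and 5.68 in Col-0 SA and 5.88 and 5.82 in Col-0 water. It was highest where AT5G03350 was lowest. The models of these adjoining genes overlap at their ends in the gene table, so a part of either signal from the other transcript cannot be told apart. On the other side the nearest measured gene, AT5G03360 at 3 places, stayed between 0.37 and 0.62 on all arrays and was not called in either genotype.

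Around AT3G28510, 3 of the 12 measured neighbours rose with SA in Col-0 and 0 fell, with a median of 0.11 against 0.02 over all probe sets. These were AT3G28540 (1.89 ± 0.141, adjusted p = 2.22e-06, limma), AT3G28480 (1.27 ± 0.145, adjusted p = 5.16e-05, limma) and AT3G28520 (0.45 ± 0.127, adjusted p = 0.0234, limma; all ± SE). In npr1-1, by the labels, 1 of the 12 was higher under SA and 3 were lower, with a median of -0.07 against 0.00 over all probe sets. The lower ones were AT3G28480 (-2.60), AT3G28540 (-2.29) and AT3G28580 (-0.86), and the higher one was AT3G28460 (0.81). For the interaction, 1 was higher and 3 were lower, with a median of -0.19 against -0.03 over all probe sets.

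AT3G28540, 3 places from AT3G28510, had levels of 4.37 and 4.63 in npr1-1 SA, 6.77 and 6.82 in npr1-1 water, 6.54 and 6.23 in Col-0 SA and 4.52 and 4.46 in Col-0 water. It is both a neighbour and a gene with one of the most similar patterns (r = 0.991), and its npr1-1 SA and Col-0 water arrays overlapped. AT3G28480, 4 places away on the other side, had 2.35 and 2.62 in npr1-1 SA, 5.25 and 4.91 in npr1-1 water, 5.01 and 5.04 in Col-0 SA and 3.73 and 3.77 in Col-0 water. Its order was that of AT5G03350 at the bottom, with npr1-1 SA well under Col-0 water. Between these genes, AT3G28490 stayed at 0.10 to 0.34 and AT3G28500 at 0.51 to 1.01, and neither was called in either genotype. AT3G28520, next to AT3G28510, had 0.40 and 0.45 in npr1-1 SA, 0.73 and 0.74 in npr1-1 water, 0.93 and 0.73 in Col-0 SA and 0.28 and 0.49 in Col-0 water, all under the array medians. Similar transcripts can share probes, and cross-hybridization among neighbours was not tested.

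Some neighbour calls rest on single arrays. AT3G28520 was no longer called in Col-0 without Col-0 SA replicate 1 (0.35, adjusted p = 0.159, limma) or without Col-0 water replicate 1 (0.34, adjusted p = 0.180). AT3G28460 lost its call in npr1-1 without npr1-1 SA replicate 2 (0.41, adjusted p = 0.0916) or npr1-1 water replicate 2 (0.70, adjusted p = 0.0974), and for the interaction without npr1-1 water replicate 2 or Col-0 water replicate 2 (adjusted p = 0.0695 and 0.0525). AT3G28580 lost its call in npr1-1 without npr1-1 SA replicate 1 (adjusted p = 0.0605), and was called for the interaction without npr1-1 water replicate 2 (-0.86, adjusted p = 0.0134). AT3G28530 was called in Col-0 (0.65, adjusted p = 0.00916) and for the interaction (-0.74, adjusted p = 0.0113) without Col-0 SA replicate 2. AT5G03420 was called for the interaction (0.77, adjusted p = 0.0431) without Col-0 SA replicate 1, and AT5G03320 in Col-0 under quantile normalization (0.39, adjusted p = 0.0456).

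The SA pathway was described with a list of 52 genes of SA signaling and SAR, of which 9 were measured, that is, had a probe set annotated to them alone. The others may be read by probe sets with several gene symbols or none, so the 9 do not stand for the whole pathway. The list was chosen with earlier results of these data known. UGT76B1, which is on it, is also a next gene picked by the same differences, so its calls follow largely from that choice. In Col-0, 3 of the 9 rose and 2 fell with SA, against 23.5% of all probe sets called, with a median of 0.26 against 0.02 over all probe sets. In npr1-1, by the labels, 1 was higher under SA and 3 were lower, against 28.2% called, with a median of -0.17 against 0.00. For the interaction, 3 were higher and 5 lower, against 32.0% called, with a median of -0.58 against -0.03.

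Among enzymes that modify SA, UGT76B1 had levels of 3.01 and 2.92 in npr1-1 SA, 8.88 and 8.92 in npr1-1 water, 9.57 and 9.75 in Col-0 SA and 4.71 and 4.87 in Col-0 water. Its high and low arrays were those of AT5G03350 and AT3G28510, but Col-0 SA lay above npr1-1 water. UGT74F1, another SA glucosyltransferase, was dim on all arrays (0.36 to 0.88) and differed between the genotypes in its SA response by -0.58 ± 0.170 (SE, adjusted p = 0.0210, limma). BSMT1, which makes methyl salicylate, was dim as well (0.23 to 0.56) and was not called in any of these comparisons. WES1 (GH3.5), which joins amino acids to auxin and SA, fell by 0.50 in Col-0 (SE 0.140, adjusted p = 0.0230, limma) and was higher by 0.63 under SA in npr1-1 (SE 0.140, adjusted p = 0.00482, limma).

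Among regulators, GRX480, a glutaredoxin that binds TGA factors, had 3.06 and 3.05 in npr1-1 SA, 7.85 and 7.97 in npr1-1 water, 8.02 and 7.93 in Col-0 SA and 6.87 and 6.67 in Col-0 water. It rose by 1.21 with SA in Col-0 (SE 0.123, adjusted p = 2.31e-05, limma) and was lower under SA in npr1-1 (-4.86, SE 0.123, adjusted p = 2.91e-10, limma). Its Col-0 water arrays were thus nearer to its Col-0 SA arrays than to its npr1-1 SA arrays, unlike those of AT5G03350 and AT3G28510. WRKY6, a transcription factor of senescence and defense, rose by 0.95 in Col-0 (SE 0.115, adjusted p = 8.8e-05, limma). WRKY53 was lower under SA in npr1-1 (-1.62, SE 0.123, adjusted p = 1.91e-06, limma) and was not called in Col-0 (0.26, SE 0.123, adjusted p = 0.171, limma). SAG101, a lipase-like partner of the immune regulator EDS1, fell by 1.09 in Col-0 (SE 0.137, adjusted p = 0.000107, limma). WRKY22 was called for the interaction alone among these 3 comparisons (0.68, SE 0.200, adjusted p = 0.0213, limma).

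The smaller calls of this list rest on single arrays or on the setting. WRKY22 lost its interaction call without either npr1-1 SA array, npr1-1 water replicate 1, Col-0 SA replicate 1 or Col-0 water replicate 1 (adjusted p = 0.0564 to 0.0920, limma), and was called in Col-0 without Col-0 SA replicate 2 (-0.54, adjusted p = 0.0346) or with a trended and robust variance (adjusted p = 0.0368). UGT74F1 lost its interaction call without replicate 2 of npr1-1 SA, npr1-1 water or Col-0 SA or without either Col-0 water array (adjusted p = 0.0537 to 0.0800), and was called in Col-0 without Col-0 SA replicate 1 (0.46, adjusted p = 0.0450), with arrays centred on their medians (0.39, adjusted p = 0.0342) or with a trended and robust variance (0.36, adjusted p = 0.0344). WES1 lost its Col-0 call without Col-0 SA replicate 1 or either Col-0 water array (adjusted p = 0.0682 to 0.181).

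**Figure D3:**
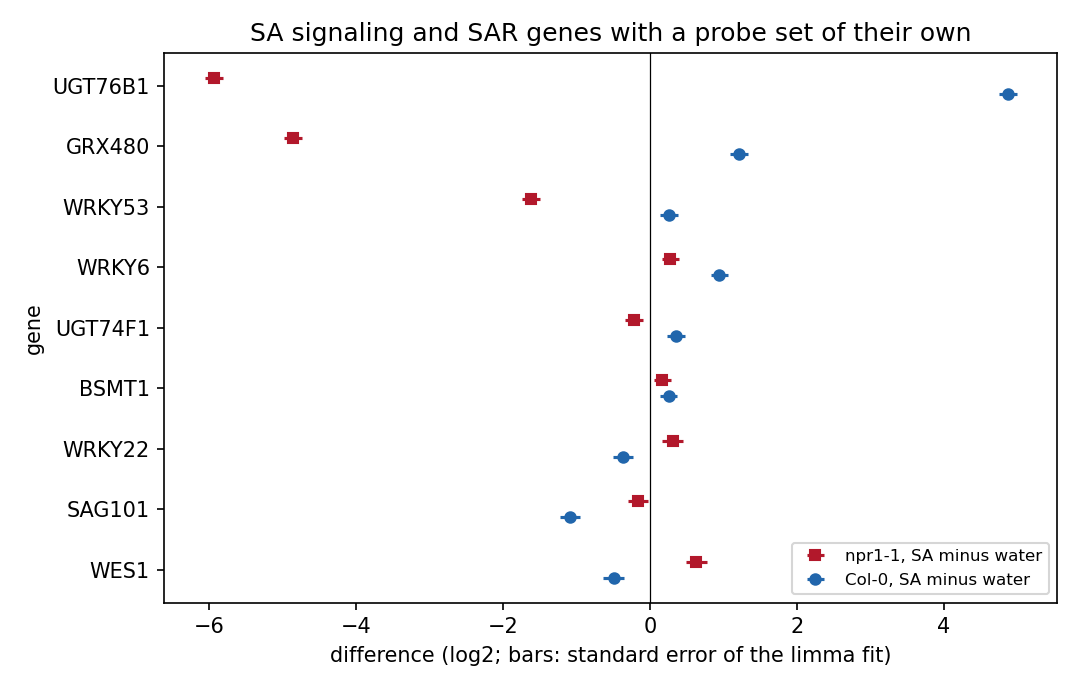
Log2 difference of SA and water in npr1-1 (red squares, by the labels) and in Col-0 (blue circles) for the 9 measured genes of the SA signaling and SAR list, with bars for the SE of the limma fit. UGT76B1 and GRX480 are higher under SA in Col-0 and lower under SA in npr1-1, and the other 7 genes lie between -2 and 1 in both genotypes.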

How the data were processed

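The log2 values, 1 per probe set and array, were deposited by the authors after background correction, normalization and summarization. The methods name RMA in affylmGUI after GCOS, while Affymetrix Expression Console stands in the submitters' processing notes; the versions, and which program gave these values, are not given in the sources used here. Detection calls were not used. Samples were grouped by their labels. Control probe sets (64) were left out, with no filter on the other 22746. Genes were named through the platform annotation (503 probe sets had several symbols and 8730 none) and the gene table of TAIR10.1; where a gene had several probe sets (146 genes), the brightest by mean stood for it.

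The 4 group means were fitted on all 8 arrays with limma 3.58.1 (lmFit, contrasts.fit, eBayes without trend) in R 4.3.3, and p was adjusted by Benjamini and Hochberg over all probe sets. The fit was also tested on simulated data. The members and lists were chosen with earlier results of these data known, so the members have no test. Named genes are the members, the next 3 by the Col-0 rise and by the interaction, the 5 most like each member, and all measured neighbours (10 on each side) and SA list genes. Relatives by protein identity were not run. Alternatives were a replicate block, arrays centred on their medians or quantile-normalized, a filter on the dimmest 25%, robust variances with a trend, other measures of likeness, and each array left out in turn.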

Additional observations from a re-analysis of the deposited data

Results flagged for a closer look

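SA arrays lay on one side of the water arrays in npr1-1 and on the other side in Col-0, without a test of that difference, for AT5G03350 (interaction -12.55), AT3G28510 (-12.13), AT1G19960 (-9.07), AT2G32160 (-8.23), AT3G07600 (-5.84), AT1G13750 (-5.18), AT2G30660 (-5.12) and AT3G29240 (-4.54). These 8 genes were chosen by their values. For AT2G30660 the difference in npr1-1 was only -0.43, between values under the array medians.

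Among the chromosome neighbours of AT5G03350, limma's test of the interaction was passed by IDH-V (-2.09), AT5G03380 (-1.23), AT5G03320 (-1.01), AT5G03390 (-0.69) and AT5G03345 (0.80). Among those of AT3G28510, it was passed by AT3G28540 (-4.19), AT3G28480 (-3.87), AT3G28520 (-0.76) and AT3G28460 (1.06). In the SA signaling and SAR list, it was passed by UGT76B1 (-10.81), GRX480 (-6.06), WRKY53 (-1.88), WRKY6 (-0.67), UGT74F1 (-0.58), WRKY22 (0.68), SAG101 (0.93) and WES1 (1.13). That list was chosen with earlier results of these data known. UGT76B1 is also a next gene picked by its interaction, so its pass follows largely from that choice and is not read as a result. In all groups of genes, negative values mean that SA minus water was lower in npr1-1 than in Col-0. Over all probe sets, 32.0% passed this test.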

How the results depend on the processing

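No called difference changed direction under any alternative run, and of the members' differences only that of AT3G28510 between the genotypes over both treatments, 0.00, turned sign (-0.13 to 0.14 with an array left out). Quantile normalization moved the AT5G03350 interaction to -12.74. Leaving out each array in turn gave the following ranges for AT5G03350 and AT3G28510. SA minus water in Col-0 was 5.06 to 5.43 for AT5G03350 and 5.10 to 5.64 for AT3G28510. The interaction was -12.73 to -12.36 for AT5G03350 and -12.40 to -11.86 for AT3G28510. The difference of npr1-1 and Col-0 in water was 5.74 to 6.10 for AT5G03350 and 5.80 to 6.33 for AT3G28510. Of the 5 most like genes, leaving out an array kept 2 to 4 for AT5G03350 and 3 to 5 for AT3G28510, Spearman's rho 0 and 1, and Euclidean distance 2 and 3. Centring the arrays shifted the median of npr1-1 minus Col-0 under SA to -0.15 from -0.02 and turned its split of higher and lower calls to 4008 and 5897 from 4757 and 4188, and that over both treatments to 3896 and 5297 from 4847 and 3747. It also turned, by less, the splits of SA in npr1-1 to 3130 and 3302 from 3367 and 3052, of the interaction to 3526 and 3867 from 3852 and 3422, and of the genotypes in water to 2786 and 3241 from 3238 and 2896, while that of SA in Col-0 kept more lower calls (2600 and 2783, from 2304 and 3038); the members' difference under SA was then -6.76 for AT5G03350 and -6.19 for AT3G28510. No pairing of the arrays by replicate number was seen in the values (correlation of same-numbered deviations -0.19 to 0.08), and the labels do not say whether there was one. With the replicate number as a block 5150 probe sets were called for SA in Col-0, against 5342 without it, and no neighbour or SA list call changed. Over the single neighbours and list genes, 1122 values kept their side of the threshold, 20 lost their call and 10 gained one. Dim signal limits the low values of AT3G28510 and the genes that were dim on all arrays. Motif shares in promoters and relatives by protein identity were not run, and the neighbours and list were measured only in part.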
